A study of Rattus norvegicus with 20 samples.

Results

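The genes described here are the collagen chains of the rat on a single-colour Agilent gene expression array. A gene counted as a collagen chain if its name in the array files was Col, a number, the letter a and a number, with the ending "_predicted" removed. This rule found 51 probes for 31 genes among the 35561 genes named on the array. The probe with the highest mean log2 signal over the 20 arrays stood for each gene. RNA came from primary heart cultures of neonatal rats, labelled as cardiomyocytes, that had grown for 1 day before treatment. Of the 20 arrays, 2 were of untreated cultures, for which the labels give no time and no vehicle. The other 18 were of cultures given celecoxib, an inhibitor of cyclo-oxygenase 2, at reference concentrations of 1, 1/5 or 1/25 for 6 h or 24 h, with 3 arrays in each of the 6 groups. The absolute concentrations are not given. Nothing in the labels ties a replicate to a culture of its own, so p-values here reflect the spread among these arrays alone, and that spread may be technical.

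Collagens are trimers of alpha chains wound into a long helix, in which glycine recurs at regular steps. Fibrillar collagens give the heart wall its tensile strength, network-forming type IV collagen underlies the basement membrane around each cardiomyocyte, and smaller collagens decorate fibrils, span membranes or release endostatin. In heart, the fibrillar chains are known chiefly as products of fibroblasts, and their amounts rise in fibrosis.

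The repeat of the helix can be read in some of the probes themselves. A probe here is a DNA strand of 60 bases, printed 5′ to 3′ with its position in the rat build rn3 as the array files give it. In 3 of the 51 collagen probes (5.88%), at least 4 glycine codons, GG followed by any base, lay 9 bases apart, against 22 of all 41012 probes (0.0536%). These are shown because they sit in the coding stretch that defines the family, with the glycine codons in capitals. The Col9a1 probe, the only one of them that stood for its gene, has 6 such codons and lies at chr9:22978230-22984184 on the plus strand. The Col9a3 probe has 5 and lies at chr3:169613584-169613964 on the plus strand. The Col4a5 probe has 5 and lies at chrX:37012452-37012511 on the minus strand.
Col9a1: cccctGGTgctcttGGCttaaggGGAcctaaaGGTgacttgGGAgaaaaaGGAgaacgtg
Col9a3: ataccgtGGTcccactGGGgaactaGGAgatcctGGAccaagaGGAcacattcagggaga
Col4a5: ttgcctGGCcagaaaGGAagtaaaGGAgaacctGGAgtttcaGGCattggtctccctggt

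Fibrillar chains are paralogs, and a probe of each of 3 of them is shown. The longest stretch common to all 3 probes was 8 bases, in capitals. The stretch shared by the Col3a1 and Col5a2 probes runs on past the capitals. The genes were not aligned, so how far they have diverged was not measured. The Col1a1 probe lies at chr10:83652273-83652332 on the plus strand, the Col3a1 probe at chr9:44318879-44318938 on the plus strand and the Col5a2 probe at chr9:44376974-44377033 on the minus strand. The Col3a1 probe is the one used below, and the others are further probes of their genes.
Col1a1: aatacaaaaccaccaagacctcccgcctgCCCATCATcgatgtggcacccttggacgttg
Col3a1: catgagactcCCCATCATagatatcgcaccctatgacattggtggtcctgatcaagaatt
Col5a2: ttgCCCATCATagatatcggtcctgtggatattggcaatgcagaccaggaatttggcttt

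Of the 51 probes, 13 (25.5%) covered more than 60 bases of genome and so crossed an intron. The probes of Col27a1 and Col23a1 are among these and are shown because both genes differed from untreated in tests given below. The Col27a1 probe spans chr5:80318237-80319787 and the Col23a1 probe chr10:37088770-37089127, both on the plus strand. Col11a1, which differed between times, had 4 probes, of which the one at chr2:210152941-210153000 on the plus strand is shown beside them.
Col27a1: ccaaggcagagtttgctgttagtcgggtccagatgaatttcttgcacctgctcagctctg
Col23a1: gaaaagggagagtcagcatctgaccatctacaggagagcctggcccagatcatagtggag
Col11a1: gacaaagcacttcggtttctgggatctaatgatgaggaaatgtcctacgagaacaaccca

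Levels below are log2 signals of a probe relative to the 75th percentile of signal on its array. They compare 1 probe between arrays and do not rank different genes. On each array 63.47% to 83.13% of spots read well above background by the scanner software and 5.71% to 9.24% were saturated. The arrays were scanned on 2 days. Both untreated arrays, all 24 h arrays, replicates 1 and 2 of concentration 1 for 6 h and replicate 1 of 1/25 for 6 h were scanned on day 1, and the other 6 h arrays on day 2. The 75th percentile of signal was 7708 to 13664 on day 1 arrays and 12815 to 17499.6 on day 2 arrays. All 12 cardiomyocyte markers looked for, among them Myh6, Tnnt2 and Actc1, were well above background on all 20 arrays. Of 8 fibroblast markers measured 5 were, with S100a4 saturated throughout. Of 6 cartilage markers 4 were, with Sox9 saturated throughout. So were 5 of 6 smooth muscle and pericyte markers and most of 4 epicardium markers. For macrophages and leukocytes 4 of 7 markers were, and for Schwann and neural crest derived cells 2 of 5. For erythroid cells 1 of 2 was, and for endothelium 1 of 7. Emcn, Itgam, Hapln1, S100b and Hbb of these lists were well above background on no array. In bulk RNA, fewer cells of a type and less RNA per cell cannot be told apart.

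Most of the 31 genes the name rule found were detected. Other chains of the family, such as Col24a1, Col4a3, Col4a6, Col13a1 and Col19a1, were not measured here, and Col11a2 was on the array under a name outside the rule. Of the 31 genes, 26 were well above background on all 20 arrays. Col4a5 and Col12a1 were on 19 arrays, Col22a1 on 13, Col9a2 on 6 and Col17a1 on 3. Col17a1, a transmembrane collagen of epithelial anchoring, was therefore not tested, and 30 genes were. Col9a2 entered only through 1/5 for 6 h, where it was well above background on all 3 arrays, and it was so on no 24 h array. By class, 9 fibrillar chains were tested, with 4 of the basement membrane network, 3 of hexagonal networks, 7 fibril-associated chains, 3 chains of type VI beaded filaments, the anchoring fibril chain Col7a1, the transmembrane chain Col23a1, and Col15a1 and Col18a1, which release endostatin-like fragments. The median standard deviation within groups was 0.405 for the collagen genes and 0.468 for all genes tested.

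The chains of type I collagen, the main fibrillar collagen of heart, lay at the top of the scanner's range. The chosen probe of Col1a2 was saturated on 20 arrays, that of Col4a1 on 19 and that of Col1a1 on 15, and no other collagen's chosen probe was saturated on any. A saturated spot has only a lower bound, so changes of these 3 genes are compressed. For Col1a2 the linear signal ran from 56410 to 79500 over the 20 arrays.

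Col1a1 lay at 2.24 and 2.2 in untreated cultures. After 6 h it lay at 2.52, 2.61 and 1.91 at concentration 1, at 1.93, 1.77 and 1.94 at 1/5, and at 2.84, 1.89 and 2.26 at 1/25. After 24 h it lay at 1.99, 1.9 and 2.76, at 2.81, 2.62 and 2.62, and at 2.29, 2.47 and 2.31 in the same order. At 1/5 all 6 h arrays were below and all 24 h arrays above both untreated arrays, at 1/25 all 24 h arrays were above them, and the other groups overlapped untreated. The chosen probe was saturated on both untreated arrays and all 6 h arrays. Neither the sizes nor the directions of its differences were therefore measured. The level of a saturated spot falls as the 75th percentile of its array rises. That percentile was 14129.5 to 14865.9 at 1/5 for 6 h and 9740.6 to 10356.6 at 1/5 for 24 h. In untreated cultures it was 13205.8 and 11935.6. Before scaling, the signals were 62450 and 54720 in untreated cultures and 59920 to 68870 at 1/5 for 24 h. None of the differences passed.

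Col1a1 has 2 dimmer probes, saturated on 1 array and on none. A fit of every probe, added after the data had been seen, gave differences of -1.72 and -1.90 for them at 1/5 for 6 h against untreated (limma adjusted p = 0.097 and 0.09), where the saturated probe gave -0.34. The dimmest lay at 1.87 and 0.78 in untreated cultures and at -0.07, -1.08 and -0.58 in these. Both dimmer probes gave a fall, and the saturated probe measures neither its direction nor its size. All 1/5 for 6 h arrays were scanned on day 2 and both untreated arrays on day 1. At concentration 1 for 6 h the dimmest read 0.16 and 1.57 on day 1 and -0.62 on day 2. The other read 1.54 and 1.98, then -0.09. At 1/25 for 6 h the dimmest read -0.03 on day 1 and -0.47 and 1.95 on day 2. The other read 1.51, then 0.04 and 2.46. The part of scan day in the fall was not tested. In no comparison did a Col1a1 probe reach an adjusted p below 0.05. The second probe of Col1a2 was dimmer as well. At 1/25 for 6 h it lay at 0.67, -0.28 and 2.3, against -0.45 and -1.09 in untreated cultures. This probe was itself saturated on the third of these arrays. Its difference was 1.67 (adjusted p = 0.074) with that array and 0.96 as a plain difference of means without it, a value also added after the data had been seen. Replicate 3 of 1/25 for 6 h held the highest value of every array for this probe and for both dimmer Col1a1 probes.

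**Figure D1:**
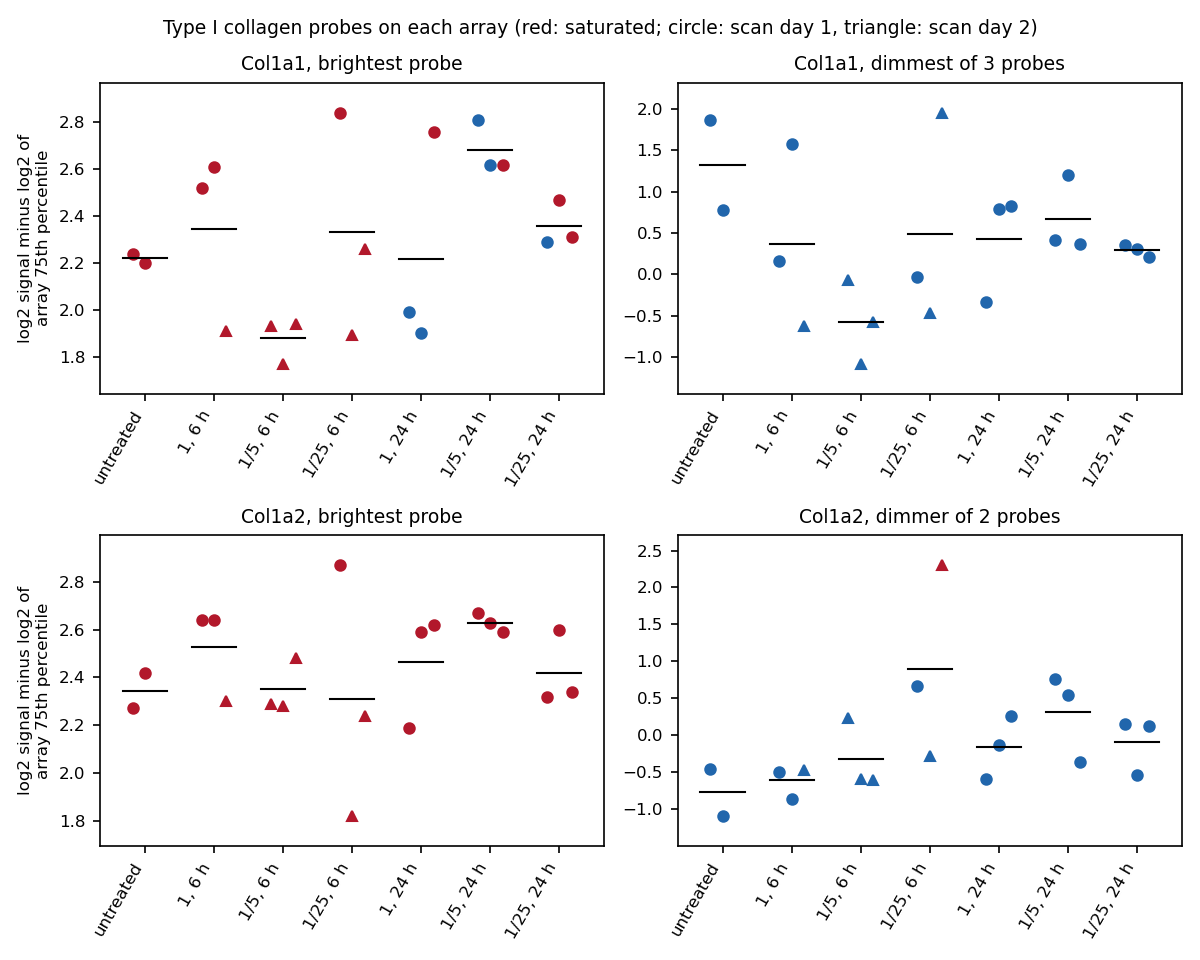
Level of the brightest and the dimmest probe of Col1a1 and Col1a2 on each array, relative to the 75th percentile of its array (log2), by treatment group; points are arrays (circles scan day 1, triangles day 2, red saturated) and bars are group means. The bright Col1a1 probe runs from 1.77 to 2.84, while the dim one runs from -1.08 to 1.95.

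Type III and type V collagen assemble into the same fibrils as type I. Col3a1 lay at 1.56 and 0.81 in untreated cultures. After 6 h it lay at 1.41, 1.32 and -0.07 (concentration 1), 0.93, 0.91 and 0.15 (1/5), and 1.4, 1 and 2.09 (1/25). After 24 h it lay at 0.25, 2.12 and 1.98, at 1.97, 2.04 and 2.05, and at 1.05, 1.52 and 0.37. Arrays of the same group lay far apart, except the 3 of 1/5 for 24 h, which lay close together above both untreated arrays. That group exceeded 1/5 for 6 h by 1.36, which did not pass (adjusted p = 0.0981). Its arrays were scanned on day 1 and those of 1/5 for 6 h on day 2. Within concentration 1 and 1/25 for 6 h, Col3a1 on day 2 minus day 1 was -1.43 and 0.15.

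Col5a1, a chain that governs fibril diameter, lay at 2.28 and 0.88 in untreated cultures, between 0.24 and 2.24 over the 6 h arrays and between 1.5 and 2.26 over the 24 h arrays. Its untreated arrays spanned all of the 24 h arrays and most of the 6 h arrays. Col5a2 lay at 1.74 and 1.75 in untreated cultures, between 1.67 and 2.71 after 6 h and between 1.38 and 2.39 after 24 h. Its means were above untreated in all 6 groups, by 0.09 to 0.42, and no difference of either gene passed.

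In the basement membrane network, Col4a1, the common partner of the type IV trimer, lay at 2.13 and 2.29 in untreated cultures and between 1.64 and 2.77 in treated ones, almost all saturated. By this probe its exact differences were therefore not measured. A second Col4a1 probe was saturated on untreated replicate 1 alone, so its differences from untreated are not exact either. In the fit of every probe they were -0.022, -0.447 and -0.063 at concentrations 1, 1/5 and 1/25 for 6 h. At 24 h they were -0.025, -0.056 and -0.01. From 6 h to 24 h that probe gave -0.003, 0.391 and 0.053. At 1/5 the arrays of these times differed in scan day. Col4a2, the other chain of that trimer, was not saturated. It lay at 1.26 and 0.32 in untreated cultures. After 6 h it lay at 0.28, 0.54 and -0.55 (concentration 1), 0.43, 0.37 and -0.19 (1/5), and 0.38, 0.67 and -0.45 (1/25). After 24 h it ran from 0.42 to 1.02. The 6 h means of Col4a2 were 0.59 to 0.70 below untreated, but the untreated arrays themselves differed by more than that, and none of these differences passed. Col4a2, Col4a4 and Col4a5 had higher means at 24 h than at 6 h at each concentration under each scaling, none passing. With a scan-day block all 3 were lower at 1/5 (-0.21, -0.09 and -1.11).

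Against untreated cultures, few collagen genes were called after 6 h. At concentration 1 for 6 h none of the 30 was called, where 0.429% of all genes were. An unadjusted p below 0.05 was reached by 6 of the 30. The share of all genes at that unadjusted threshold is not given, here or below, so no excess is read from such counts. At 1/5 for 6 h 1 of 30 was called, Col27a1, against 6.52% of all genes. At 1/25 for 6 h 3 of 30 were called, Col27a1, Col22a1 and Col23a1, against 6% of all genes. All of these were lower than in untreated cultures. Lower calls made up 2.12% of all genes at 1/5 and 3.75% at 1/25. Both shares of collagen genes rest on 3 genes or fewer.

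Col27a1 is a fibrillar chain known from cartilage and growing tissues. It lay at -2.08 and -1.97 in untreated cultures. It lay at -2.77, -3.27 and -3.61 at concentration 1 for 6 h, at -3.24, -3.48 and -3.47 at 1/5, and at -3.51, -2.88 and -3.32 at 1/25. Every 6 h array was below both untreated arrays. The fold was 2.59 lower at 1/5 (log2 difference -1.37, SE 0.336, limma adjusted p = 0.0308) and 2.32 lower at 1/25 (-1.21, SE 0.336, adjusted p = 0.0467). At concentration 1 the difference was of like size and did not pass (-1.19, adjusted p = 0.109). After 24 h the arrays lay at -2.98, -2.61 and -2.76 at concentration 1, at -2.11 and -2.81 at 1/5, where replicate 1 was left out as an outlier spot, and at -1.74, -2.71 and -2.31 at 1/25. The means stood 0.76, 0.44 and 0.23 below untreated, and none passed.

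Col22a1, a fibril-associated collagen of tissue junctions, was dim. It lay at -3.81 and -3.53 in untreated cultures, both well above background. At 1/25 for 6 h it lay at -6.53, -4.86 and -5.84, with 1 of 3 arrays well above background. The log2 difference was -2.07 (SE 0.533, adjusted p = 0.0365), and since the other 2 arrays were not well above background, its exact size was not measured. At 1/5 for 6 h it lay at -5.59, -4.67 and -5.39 and did not pass (-1.54, adjusted p = 0.0861), and at concentration 1 it lay at -4.39, -3.16 and -4.47 and overlapped untreated. The 24 h arrays ran from -5.22 to -3.51.

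Col23a1, a transmembrane collagen that can be shed from the cell surface, lay at -1.06 and -0.86 in untreated cultures and was lower on all 18 treated arrays. At 1/25 for 6 h it lay at -2.25, -2.04 and -3.34 (difference -1.58, SE 0.377, adjusted p = 0.0298), a fold of 3. Its differences at concentration 1 and 1/5 for 6 h were both -1.07, and those at 24 h ran from -0.87 to -0.59. None of these passed. In the fit of every probe, the second Col23a1 probe gave -0.28 at 1/25 for 6 h, where the chosen probe gave -1.58.

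The calls rested on single arrays. Without untreated replicate 1, no collagen was called at 1/5 or at 1/25 for 6 h, where 0.0253% and 0.0542% of all genes were. Without untreated replicate 2, the call at 1/5 was Col6a3 (5.52% of all genes) and those at 1/25 were Col9a3 and Col5a3 (10.9%). Col27a1 at 1/5 was also lost without any 1 of the 3 arrays of that group (adjusted p = 0.066, 0.0913 and 0.101). At 1/25, 5 of 30 genes were called without replicate 1 (13.4% of all genes), 9 without replicate 2 (16.7%) and none without replicate 3 of that group (0.425%). Of the 3 called at 1/25, Col22a1 and Col27a1 were lost without replicate 1 (adjusted p = 0.0528 and 0.0571). Col27a1 at 1/25 was also lost without any array of 1/5 for 6 h, of concentration 1 for 24 h or of 1/5 for 24 h, or without replicate 3 of 1/25 for 24 h (adjusted p = 0.05 to 0.0633), for an unchanged difference. Scaled to the array median in place of the 75th percentile, the median difference of all genes from untreated moved from -0.07, -0.19 and -0.18 to 0.25, -0.01 and 0.24 at concentrations 1, 1/5 and 1/25 for 6 h, and at 24 h it became 0.30, 0.29 and 0.25. The calls at 1/25 then became 2 higher and none lower, Col15a1 and Col6a3, in place of none higher and 3 lower, and those at 1/5 became none. Shares of all genes called under that scaling are not given.

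**Figure D2:**
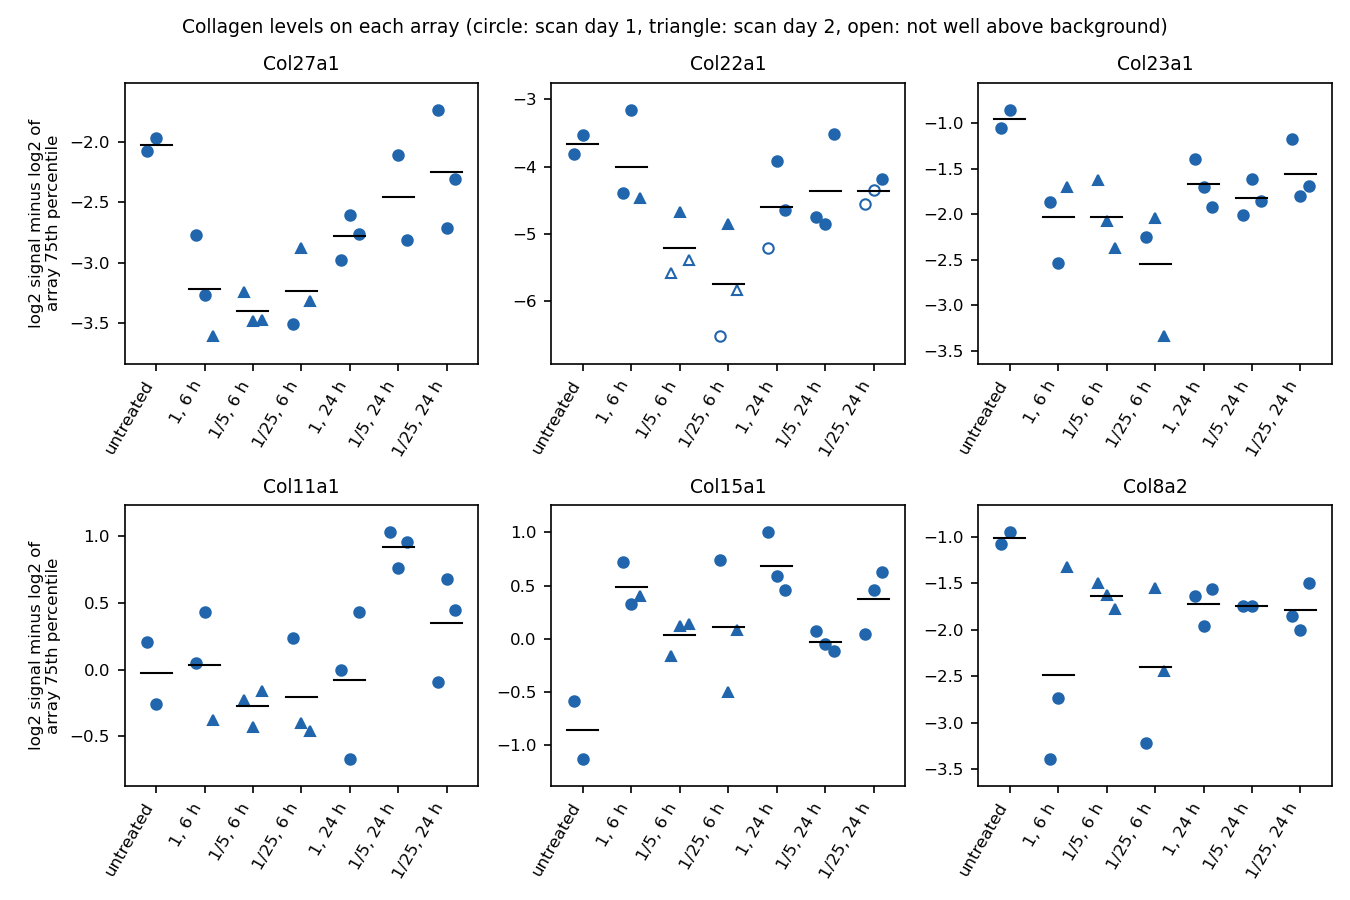
Level of 6 collagen genes on each array, relative to the 75th percentile of its array (log2), by concentration and time; circles were scanned on day 1, triangles on day 2, open points were not well above background, and bars are group means. Col27a1 and Col23a1 lay below both untreated arrays on every 6 h array, and Col15a1 lay above both on every treated array.

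After 24 h no collagen gene was called against untreated at concentration 1, 1/5 or 1/25, where 0.0648%, 0.288% and 0.288% of all genes were called. At an unadjusted p below 0.05 there were 4, 3 and 1 collagen genes, with no share of all genes to set beside them. The median difference of the 30 genes was 0.00 at concentration 1, 0.14 at 1/5 and 0.04 at 1/25, against 0.00, -0.02 and -0.04 for all genes. At 6 h it was -0.05, -0.37 and -0.23, against -0.07, -0.19 and -0.18 for all genes. At concentration 1 and at 1/25 for 6 h the collagen median turned positive when arrays were scaled to their median (0.27 and 0.19, all genes 0.25 and 0.24). At 1/5 for 6 h, 22 of 30 genes were lower than untreated, and 20 to 21 of 30 were under the other scalings.

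**Figure D3:**
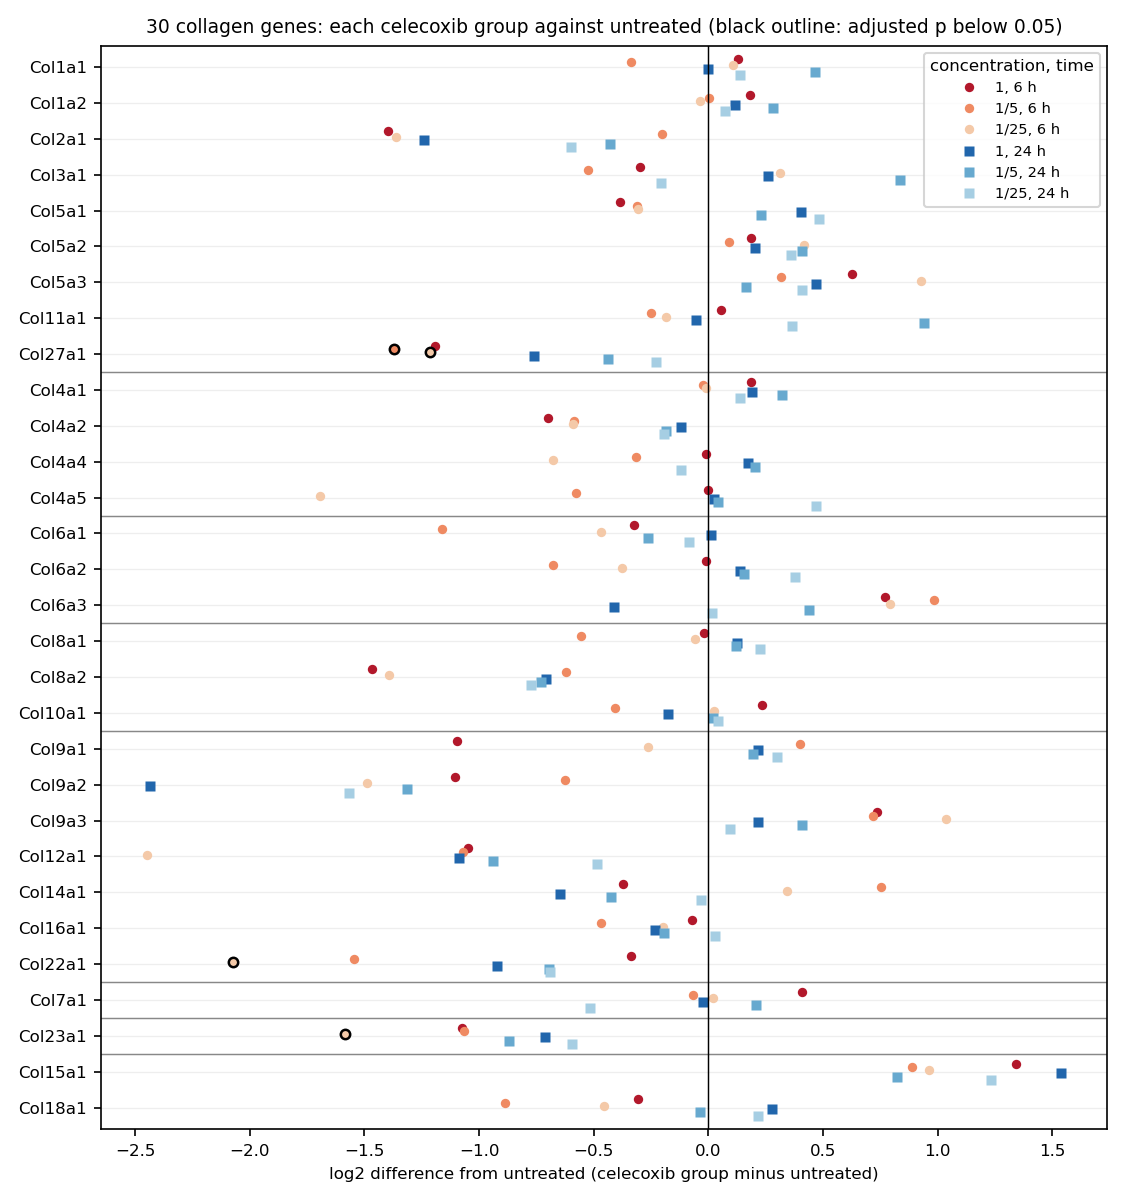
Log2 difference of each celecoxib group from untreated for the 30 collagen genes tested, grouped by class; circles are 6 h, squares 24 h, and a black outline marks an adjusted p below 0.05. The outlined points are Col27a1 at 1/5 and 1/25 for 6 h, and Col22a1 and Col23a1 at 1/25 for 6 h.

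Collagens whose arrays did not overlap with untreated numbered 8 (27.6% of genes with all values, 27% of all genes) at concentration 1 for 6 h, 13 (43.3%, against 51.3%) at 1/5 and 11 (36.7%, against 29.6%) at 1/25. After 24 h they numbered 9 (30%, against 28.3%), 9 (32.1%, against 40%) and 12 (40%, against 32.9%).

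Some collagens kept 1 direction against untreated in all 6 groups, which share the same 2 untreated arrays. Col15a1, Col5a2, Col5a3 and Col9a3 were higher in all 6. Col12a1, Col22a1, Col23a1, Col27a1, Col2a1, Col4a2 and Col8a2 were lower in all 6. Col9a2 also read lower, but it was well above background on 1 of 2 untreated arrays and on no 24 h array, so no direction is drawn for it. Under array-median scaling, quantile normalization and the authors' deposited table, Col15a1, Col5a3 and Col9a3 stayed higher in all 6, and Col12a1, Col23a1, Col2a1 and Col8a2 lower. Col5a2, Col22a1, Col27a1 and Col4a2 did not keep their direction under at least 1 of these. The rise of Col9a3 held for its chosen probe alone: its second kept probe, well above background on all 20 arrays, was lower than untreated in all 6 groups, by 0.55 to 1.34. The further probes of Col5a2 were lower in 1 or 2 of the 6 groups. Col15a1, Col8a2, Col2a1, Col6a3 and Col18a1 are described next and were chosen after their values were seen.

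Col15a1, a multiplexin of the zone beneath the basement membrane whose loss is known to weaken heart and muscle in mice, lay at -0.59 and -1.13 in untreated cultures. At 6 h Col15a1 lay at 0.72, 0.33 and 0.4 (concentration 1), -0.16, 0.12 and 0.14 (1/5), and 0.74, -0.5 and 0.08 (1/25). At 24 h Col15a1 lay at 1, 0.59 and 0.46, at 0.07, -0.05 and -0.12, and at 0.04, 0.46 and 0.63. All 18 treated arrays were above both untreated arrays. The differences were 1.34, 0.89 and 0.96 at 6 h and 1.54, 0.82 and 1.24 at 24 h (SE 0.328), and the adjusted p-values, from 0.0748 to 0.264, did not pass. With scan day as a block Col15a1 passed at concentration 1 for 6 h (1.52, adjusted p = 0.00945), at 1/25 for 6 h (1.32, adjusted p = 0.023) and at concentration 1 for 24 h (1.54, adjusted p = 0.0317).

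Col8a2, a chain of the hexagonal networks of vessel wall and cornea, lay at -1.07 and -0.95 in untreated cultures and lower on all 17 treated arrays with a value. After 6 h it lay at -3.39, -2.74 and -1.32 (concentration 1), -1.5, -1.62 and -1.78 (1/5), and -3.22, -1.55 and -2.44 (1/25). After 24 h it lay between -2 and -1.5. The 3 lowest arrays were the 6 h arrays scanned on day 1. No difference of Col8a2 passed in the fit of groups alone, which gave -1.47, -0.62 and -1.39 at concentrations 1, 1/5 and 1/25 for 6 h. With a block for scan day it was lower than untreated at all 3 concentrations for 6 h: -1.96 (adjusted p = 0.00352), -2.11 (adjusted p = 0.0306) and -2.38 (adjusted p = 0.00238). At 1/5 no array was scanned on day 1, so the size of the fall there was not measured within a day. Its value rests on the day differences of the other 6 h groups, 1.75 at concentration 1 and 1.22 at 1/25.

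Col2a1, the fibrillar chain of cartilage and of early valve tissue, had a like pattern. It lay at -0.29 and -1.43 in untreated cultures. At 6 h Col2a1 lay at -2.74, -2.56 and -1.46 (concentration 1), -0.95, -1.1 and -1.14 (1/5), and -3.08, -1.19 and -2.4 (1/25). The 24 h arrays ran from -2.45 to -0.89. With scan day as a block the differences at concentration 1 and 1/25 for 6 h were -1.81 (adjusted p = 0.0172) and -2.19 (adjusted p = 0.0115). No cartilage marker was called in any comparison, and their mean level ran from -2.59 to -2.43 in untreated cultures and from -3.44 to -1.91 in treated ones; their part in the result was not tested.

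Concentration 1 against 1/25 gave no collagen call at 6 h or at 24 h, and no call among all genes (0% at each time). Arrays did not overlap for 1 collagen (3.45%, all genes 4.15%) at 6 h and for 3 (10%, all genes 12.5%) at 24 h. The lowest adjusted p of a collagen at 6 h was 0.697, for Col22a1, which was 1.74 (SE 0.477) higher at concentration 1, against a group with 1 of 3 arrays well above background. At 24 h every adjusted p was 1. At an unadjusted p below 0.05 there were 3 collagens at 6 h and none at 24 h, again without a share of all genes. The difference of this concentration effect between 24 h and 6 h had no collagen call either (0% of all genes). For it 1 collagen had an unadjusted p below 0.05, a count likewise without a share of all genes.

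Between 24 h and 6 h, 1 collagen was called. At concentration 1 none of 30 passed, against 0.176% of all genes, at 1/5 Col11a1 passed, against 4.89% of all genes, and at 1/25 none, against 2.45% of all genes. Unadjusted p-values below 0.05 numbered 3, 8 and 8 among the 30, and the share of all genes at that threshold is not given. Higher calls were 1.77% of all genes at 1/5. Col11a1 is a minor fibrillar chain that nucleates fibrils with type V collagen. At 1/5 it lay at -0.23, -0.43 and -0.16 after 6 h and at 1.03, 0.76 and 0.96 after 24 h, with untreated at 0.21 and -0.26. The 24 h arrays were higher by 1.19 (SE 0.315, limma adjusted p = 0.0457), a fold of 2.28. At concentration 1 it lay at 0.05, 0.43 and -0.38 and then at 0, -0.67 and 0.43, and at 1/25 at 0.24, -0.4 and -0.46 and then at -0.09, 0.68 and 0.45, and the groups overlapped. In the fit of every probe, its 3 kept probes gave 1.19, 1.36 and 0.89 at 1/5, of which the first passed (adjusted p = 0.048) and the others did not (0.07 and 0.09).

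The Col11a1 call was lost without any 1 of the 6 arrays compared (adjusted p = 0.107 to 0.144). It was also lost without either untreated array, replicate 1 of concentration 1 for 24 h or any array of 1/25 for 24 h, for an unchanged difference (adjusted p = 0.0514 to 0.062). At 1/5 every 6 h array was scanned on day 2 and every 24 h array on day 1, so no value within a scan day exists. A block for scan day, estimated from the other 6 h groups, gave 0.55 (adjusted p = 0.723).

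In the fit of groups alone, 17 of 30 collagens (56.7%) had higher means at 24 h than at 6 h at concentration 1, 21 (70%) at 1/5 and 22 (73.3%) at 1/25. Among all genes 52.8%, 53.8% and 57.8% did. The collagen counts were 15 to 17, 19 to 23 and 19 to 23 across the scalings. The median differences were 0.02, 0.33 and 0.33, against 0.03, 0.08 and 0.10 for all genes. Arrays of the 2 times did not overlap for 15 genes (53.6%) at 1/5, against 49.1% of all genes, and for 8 (26.7%) at 1/25, against 19.9%. At concentration 1 they did not for 3 (10.3%), against 13.9%. Col18a1, Col23a1, Col27a1, Col4a2, Col4a4, Col4a5, Col5a1, Col6a1, Col6a2 and Col8a1 were higher at all 3 concentrations, and Col14a1, Col5a3, Col6a3 and Col9a3 were lower, under each scaling. These fits did not account for scan day. Second probes reversed for Col4a5 (-0.251), Col14a1 (0.721) and Col9a3 (0.782) at concentration 1 and for Col23a1 at 1/25 (-0.256), but not for Col18a1 or Col5a1. On day 1 arrays alone Col6a2 (-0.23), Col6a1 (-0.069), Col4a5 (-0.161) and Col14a1 (0.209) reversed at concentration 1. At 1/25, where 1 array of 6 h remained, Col6a2 (-0.102) and Col5a1 (-0.174) did. Col4a1, mostly saturated, and Col9a2, above background on no 24 h array, are not counted here.

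Scan day moved with these counts. Within concentration 1 for 6 h, 22 of 29 collagens were lower on the day 2 array than on the 2 day 1 arrays, by a median of 0.528 (all genes -0.033, 51.2% lower). Within 1/25 for 6 h, 23 of 30 were lower on the 2 day 2 arrays than on the day 1 array, with a median of -0.558 (all genes -0.111, 53.5% lower). In both groups 18 genes were lower on day 2, and Col2a1 and Col8a2 were higher. Col9a2 also read higher, but it was well above background on no day 1 array of these groups, so no direction is drawn for it. These are differences between arrays of the same treatment, described without a test. With scan day as a block, the median collagen difference of 24 h against 6 h was -0.17 at concentration 1, -0.20 at 1/5 and -0.04 at 1/25, against -0.01, 0.00 and 0.02 for all genes. On day 1 arrays alone it was -0.14 at concentration 1 and -0.13 at 1/25, where 1 array of 6 h remained. The sign of the median shift turned with scan day in the fit at each concentration, from 0.02 at concentration 1 and 0.33 at the 2 lower ones.

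**Figure D4:**
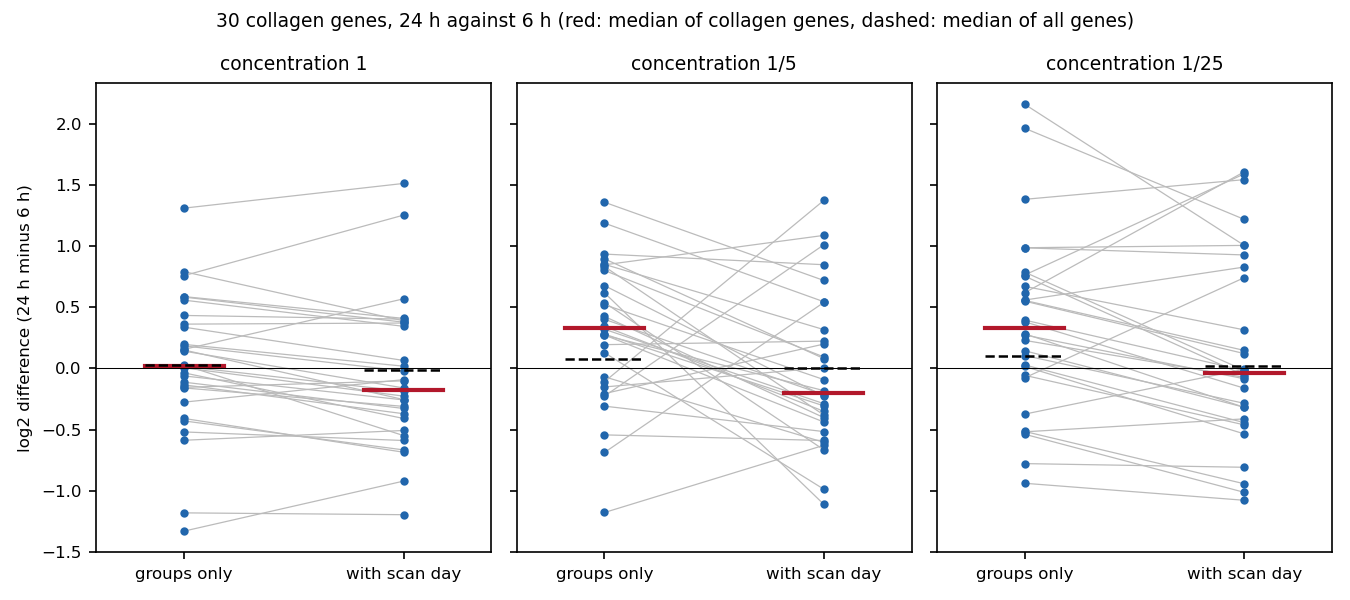
Log2 difference of 24 h against 6 h for the 30 collagen genes at each concentration, from the fit of groups alone and from the fit with scan day as a block; each line is a gene, red bars are collagen medians and dashed lines medians of all genes. The collagen median moved from 0.33 to -0.20 at 1/5 and from 0.33 to -0.04 at 1/25.

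The same held against untreated cultures, which were all scanned on day 1. With the block the collagen medians at 6 h were 0.14, 0.25 and 0.17 for concentrations 1, 1/5 and 1/25, in place of -0.05, -0.37 and -0.23. The block's values at 1/5 rest on a day effect estimated from the other 6 h groups. The genes called with the block were Col8a2, Col15a1, Col2a1 and Col27a1 at concentration 1 (8.19% of all genes), Col8a2 at 1/5 (1.14%), and Col8a2, Col2a1, Col15a1, Col23a1 and Col22a1 at 1/25 (11.5%). Col23a1 (-1.60, adjusted p = 0.0324) and Col22a1 (-2.24, adjusted p = 0.037) thus passed with and without scan day in the fit at 1/25, and Col27a1 did not pass at 1/5 (-1.28, adjusted p = 0.136) or 1/25 (-1.16, adjusted p = 0.0631) with it. On day 1 arrays alone, 4 collagens were called at concentration 1 for 6 h (5.68% of all genes) and 4 at 1/25 (9.18%), Col8a2, Col15a1 and Col2a1 in each, with Col23a1 in the first and Col22a1 in the second. The 1/25 group then holds 1 array, assumed to vary like the other groups. With slide as a random block no collagen gene was called at 1/5 or 1/25 for 6 h, and the share of all genes is not given for that fit.

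Among the type VI chains, which form beaded filaments around cells, Col6a3 lay at -1.2 and -0.54 in untreated cultures and between -0.24 and 0.16 on all 9 arrays of 6 h, above both untreated arrays. Its differences at 6 h were 0.77, 0.98 (adjusted p = 0.0578) and 0.79. After 24 h it ran from -1.78 to -0.26. At concentration 1 the 24 h arrays were 1.18 lower than the 6 h arrays, which did not pass (adjusted p = 0.0945) unless scan day was a block (-1.20, adjusted p = 0.0409). Col6a1 had means below untreated at 6 h at all 3 concentrations, the largest at 1/5 (-1.16, adjusted p = 0.0657). On day 1 arrays alone it was 0.08 at concentration 1 and -0.20 at 1/25, and with scan day as a block -0.34 (adjusted p = 0.639) at 1/5. Col6a2 did so too, by 0.01, 0.68 and 0.38, but under array-median scaling it was higher at concentration 1 and 1/25 (0.31 and 0.04), as on day 1 arrays alone (0.37 and 0.48). At 1/5 for 6 h Col6a1 lay at 0.2, 0.03 and -0.32, against 1.1 and 1.16 in untreated cultures.

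Col18a1, the source of endostatin, lay at 1.37 and 1.43 in untreated cultures and at 0.6, 0.5 and 0.44 at 1/5 for 6 h (-0.89, adjusted p = 0.0642). After 24 h at 1/5 it lay at 1.16, 1.6 and 1.34, 0.85 above 6 h (adjusted p = 0.0564). These 6 h arrays were all scanned on day 2 and these 24 h arrays on day 1. Within concentration 1 and 1/25 for 6 h, Col18a1 on day 2 minus day 1 was -0.84 and -0.23. On day 1 arrays alone, Col18a1 at 6 h differed from untreated by -0.03 at concentration 1. It differed by -0.30 at 1/25, where 1 array remained. Its second probe overlaps the first in sequence and is no independent measure.

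Col12a1, a fibril-associated chain, and Col4a5, the latter of the basement membrane, each had 1 array far below the rest, the same array in both: replicate 3 of 1/25 for 6 h read -7.64 for Col12a1, where the others read -4 and -3.38, and -7.47 for Col4a5, where the others read -2.88 and -4.08. Neither was well above background there. The difference of Col12a1 from untreated was -2.45 (adjusted p = 0.0765). Col14a1 and Col16a1, fibril-associated chains as well, overlapped untreated in all 6 groups. Col9a1 lay at 0.4 and -2.11 in untreated cultures and overlapped them in the 5 groups with all 3 values. Col7a1 and Col10a1 had differences from untreated between -0.52 and 0.41 and did not pass.

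Where a gene had several kept probes, the probes often pointed different ways. For 15 such collagens the probes shared a sign in 10, 8 and 9 genes for concentrations 1, 1/5 and 1/25 at 6 h against untreated, and in 10, 10 and 9 at 24 h. Between times they shared a sign in 5, 10 and 11 genes.

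Collagen chains need a set of partners to be made, secreted and sensed. Of 57 genes on a list of modifying enzymes, secretion factors, propeptide proteases, cross-linking enzymes, receptors and fibril partners, 47 were on the array and 42 were tested. Called genes numbered 0, 2 and 1 at concentrations 1, 1/5 and 1/25 for 6 h against untreated, all higher, where 0.429%, 6.52% and 6% of all genes were called, and 0 in each group at 24 h. Between 24 h and 6 h they numbered 1 (lower), 2 (1 higher and 1 lower) and 2 (1 higher and 1 lower), against 0.176%, 4.89% and 2.45% of all genes. Concentration 1 against 1/25 gave none at either time.

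The receptor Itga2, the integrin chain that binds collagen on platelets and epithelia, was the member of this list that changed most clearly with time. It lay at -1.55 and -3.03 in untreated cultures. At 6 h Itga2 lay at 0, -0.36 and -0.56 (concentration 1), -0.99, -0.89 and -0.16 (1/5), and -0.09, 0.12 and -1.52 (1/25). At 24 h Itga2 lay at -2.41, -2.62 and -2.97, at -2.81, -2.41 and -2.63, and at -2.75, -2.73 and -2.7. Every 24 h array was below every 6 h array. The fall from 6 h to 24 h was 2.36 (SE 0.409, limma adjusted p = 0.0202), 1.94 (adjusted p = 0.0266) and 2.23 (adjusted p = 0.0136) on the log2 scale, folds of 5.14, 3.82 and 4.69. Against untreated, Itga2 was higher at 6 h by 1.98 (adjusted p = 0.062), 1.61 (adjusted p = 0.0457) and 1.79 (adjusted p = 0.0355).

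With scan day as a block the fall of Itga2 was 2.52 (adjusted p = 0.00866), 2.43 (adjusted p = 0.153) and 2.56 (adjusted p = 0.0158). Over all alternatives the call held in 26 of 33, 24 of 32 and 29 of 34 settings, with adjusted p-values from 0.00586 to 0.205, 0.00497 to 0.456 and 0.00545 to 0.459. At concentration 1 it was lost without replicate 1 or 2 at 6 h or any array at 24 h (adjusted p = 0.0505 to 0.118), at 1/5 without any of the 6 arrays (0.0675 to 0.117), and at 1/25 without replicate 1 or 3 at 24 h (0.0522 and 0.067). Against untreated, the rise at 1/25 was 1.05 (adjusted p = 0.171) without untreated replicate 2 and 2.54 (0.0828) without untreated replicate 1. At 1/5 it was 0.86 (0.31) and 2.35 (0.115), and there it was lost too without any array of 1/5 for 6 h (0.0751 to 0.161) or of any 24 h group (0.0533 to 0.0603).

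Among the enzymes, Plod2, the lysyl hydroxylase of collagen telopeptides, lay at 0.63 and 0.28 in untreated cultures and at 1.87, 2 and 1.86 at 1/5 for 6 h, a rise of 1.46 (SE 0.348, adjusted p = 0.0276). Its probe was saturated on 1 array, of 1/25 for 6 h. With the brightest probe saturated on no array the difference was 0.51 (adjusted p = 0.326), and with scan day as a block 0.55 (adjusted p = 0.34). The call was also lost without any 1 of the 5 arrays compared (adjusted p = 0.0665 to 0.177). P4ha1, the catalytic chain of prolyl 4-hydroxylase, rose from -0.05, 0.21 and -0.98 at 6 h to 1.13, 0.62 and 1.87 at 24 h at 1/25 (1.48, SE 0.358, adjusted p = 0.0406). With scan day as a block its difference was 1.18 (adjusted p = 0.14), and without replicate 3 at 6 h it was 1.13 (adjusted p = 0.199). It was also lost without replicates 1 or 3 of 1/25 for 24 h (adjusted p = 0.142 and 0.161), and without single arrays of 1/5 or of concentration 1 for 24 h (0.0516 to 0.0594). P3h3, a prolyl 3-hydroxylase, rose at 1/5 from 1.54, 1.24 and 0.81 at 6 h to 2.32, 2.77 and 2.19 at 24 h (1.23, adjusted p = 0.0494), and passed in 8 of 32 alternatives. A block for scan day took the difference of P3h3 to 0.26 (adjusted p = 0.887), and a probe saturated on no array gave 0.89 (adjusted p = 0.235). Without any 1 of the 6 arrays compared P3h3 did not pass (adjusted p = 0.099 to 0.167). The collagen chaperone Serpinh1, the cross-linking enzyme Lox, saturated on all 20 arrays, and the matricellular protein Sparc were called in no comparison. Of these, Sparc at 1/5 lay at -0.35, -1.14 and -1.13 at 6 h and at 0.1, 0.93 and 0.12 at 24 h (1.25, adjusted p = 0.0794).

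**Figure D5:**
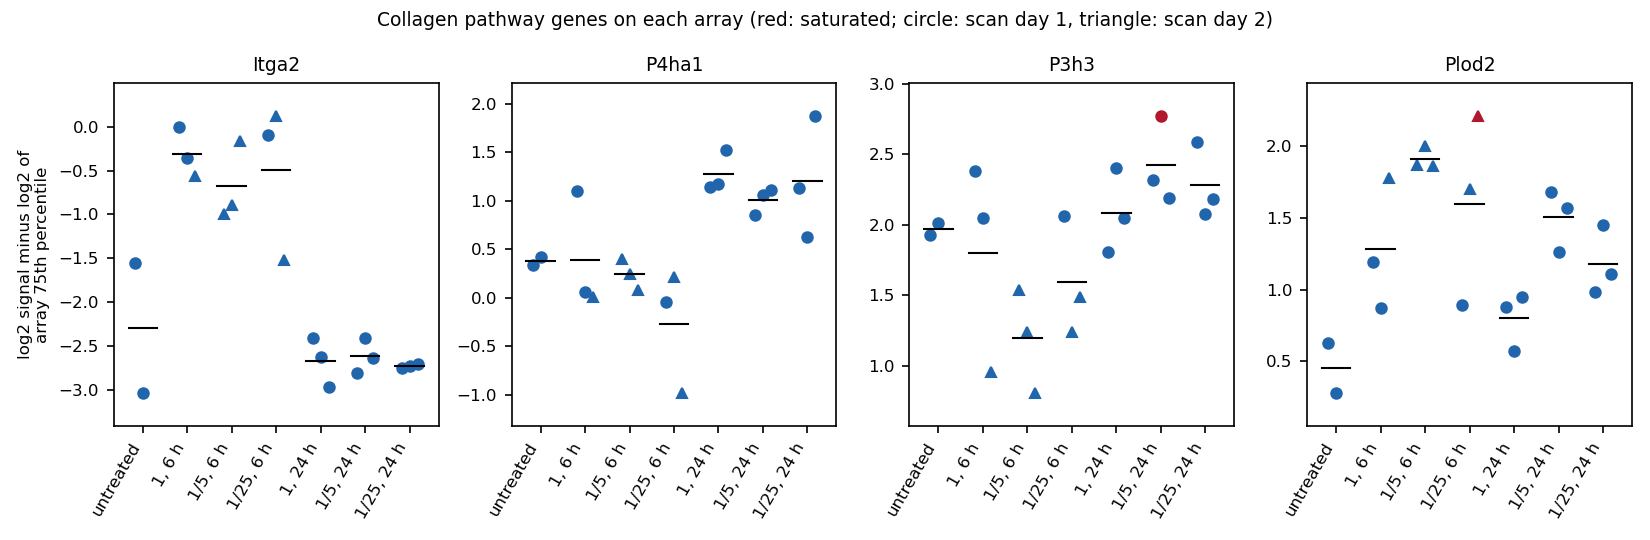
Level of Itga2, P4ha1, P3h3 and Plod2 on each array, relative to the 75th percentile of its array (log2), by concentration and time; circles were scanned on day 1, triangles on day 2, red points were saturated, and bars are group means. Itga2 lay between -1.52 and 0.12 on the 6 h arrays and between -2.97 and -2.41 on the 24 h arrays.

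No fibroblast marker was called in any comparison. At 1/5, 6 of 8 were higher at 24 h than at 6 h with a median of 0.39, beside the collagen median of 0.33, and the mean level of the list was -0.67 to -0.47 on the 6 h arrays and -0.34 to 0.04 on the 24 h arrays. Of the 12 cardiomyocyte markers 11 were higher in that comparison, with a median of 0.44. Among all genes 53.8% were, with a median of 0.08. Every 6 h array of 1/5 was scanned on day 2 and every 24 h array on day 1. As calls, 1 cardiomyocyte marker rose and 1 fell there, where 4.89% of all genes were called. None was called in another comparison. The part of these cell types in the collagen values was not tested.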

How the data were processed

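Each of 20 RNA samples was amplified, labelled with Cy3 and hybridised to 1 array, per the labels' protocols. The authors deposited scanner output with an intensity for every spot, which per the file headers came from version 9.5.3.1 of Agilent's Feature Extraction, and a processed table of linear ratio values, used here as an alternative. The number of arrays limits the precision.

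Processed signals were taken to log2 with no pseudocount, minus the log2 75th percentile of the array. Outlier spots were dropped and repeat spots averaged. The brightest probe stood for a gene, which was tested if at least 1 group had it well above background on all its arrays (27787 genes). All 7 groups were fitted in limma 3.58.1 (R 4.3.3, statmod 1.5.0), with two-sided moderated tests, 13 residual degrees of freedom, Benjamini-Hochberg adjustment over all genes and calls at an adjusted p below 0.05. The fit was tested on simulated data. Members were named if called, with Col1a1, Col1a2, Col3a1, Col5a1, Col5a2, Col4a1 and Col4a2 in any case, and pathway genes if called (at most 3 a comparison), with Serpinh1, P4ha1, Plod2, Lox and Sparc. Members, lists and tests were chosen with earlier results of these data known. The alternatives covered background correction, scaling, filters, probe choice, slide, scan day, replicate number and single arrays.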

Additional observations from a re-analysis of the deposited data

How the results depend on the processing

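Counts of called collagen genes changed with most settings. The share of all genes called under each setting is not given beside them, so they are not results about collagens in particular. The fits below are named by comparison. For concentration 1 for 6 h against untreated (0 called), quantile normalization and slide as a random block each gave 1, slide as a fixed block 2, and scan day as a block or day 1 arrays alone 4. For 1/5 for 6 h (1 called), array-median scaling, the authors' deposited table, both slide blocks and the replicate block gave 0, and normexp background, genes well above background on all 20 arrays and a fit of only the groups compared gave 4, with 5 after quantile normalization. For 1/25 for 6 h (3 called), slide as a random block and only the groups compared gave 0, normexp, no filter and the replicate block 1, and scan day 5. For concentration 1 for 24 h (0 called), normexp and scan day gave 1. For 24 h against 6 h, scan day gave 2 at concentration 1 and 1 at 1/25, from 0. At 1/5 (1 called), array-median scaling, the deposited table, no filter, slide as a random block, scan day and the replicate block gave 0, quantile normalization and genes above background on all arrays 2, normexp 3 and only the groups compared 8. Leaving out 1 array at a time gave 0 to 1, 0 to 4 and 0 to 9 calls at concentrations 1, 1/5 and 1/25 for 6 h, 0 to 1 at concentration 1 for 24 h, and 0 to 1, 0 to 4 and 0 to 2 for 24 h against 6 h at concentrations 1, 1/5 and 1/25; the other comparisons stayed at 0. No called difference changed sign.

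The labels do not say whether equal replicate numbers mark paired arrays. Deviations from group means of 57 pairs of arrays with the same number had a median correlation of -0.003 (-0.438 to 0.463), and 7 of 20 arrays correlated best with their own number. The replicate block took the calls at 1/5 for 6 h from 1 to 0, at 1/25 for 6 h from 3 to 1 and at 1/5 between times from 1 to 0. Within-day values at 1/5 for 6 h could not be had, since no array of that group was scanned on day 1. Signal limits Col22a1, Col9a2 and Col17a1, which were below background on many arrays, and saturation limits Col1a2, Col4a1 and Col1a1.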
